A study of Homo sapiens and Mus musculus with 12 samples.

Results

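Histone genes fall into 2 kinds, and both were followed here through the polysome profiles of 2 melanoma cell lines. They were picked by symbol: in the human A375 table every row named as an H1, H2A, H2B, H3 or H4 gene, and in the mouse Yumm1.7 table every row with the corresponding older or newer mouse names. Of 78 matching A375 rows, 8 pseudogenes and 4 antisense or divergent transcripts were dropped, which left 66 genes of the 16782 in the table. Of 76 matching Yumm1.7 rows, 2 pseudogenes were dropped, which left 74 genes of 12711. The A375 genes comprise 54 replication-dependent genes, those that carried a HIST cluster name, and 12 variants. The Yumm1.7 genes comprise 62 replication-dependent genes and 12 variants.

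Replication-dependent histone genes supply the bulk of the nucleosome proteins during S phase, when new chromatin is assembled behind the replication fork. Their mRNAs normally carry no poly(A) tail and end just after a short stem-loop, which the stem-loop binding protein SLBP holds during processing, translation and decay. Replacement variants such as H3.3 and H2A.Z are made outside S phase as well, from ordinary genes with polyadenylated mRNAs. Some replication-dependent genes also give longer polyadenylated mRNAs, which have been described in cells that left the cell cycle.

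The study set drug-tolerant persisters, cells that survive a drug without a stable resistance, against their parental cells. The libraries are labelled S or P, the labels do not tell which of the 2 is the persister, and drug, dose and duration are not given. A375 is a human melanoma line and Yumm1.7 a mouse melanoma line. The groups are A375 S, A375 P, Yumm1.7 S and Yumm1.7 P, each with 1 input library (RNA before the sucrose gradient), 1 monosome library (single ribosomes, pooled with several lighter fractions) and 1 polysome library (the dense bottom of the gradient). No statistical test, error or replicate check is possible with 1 library per group, and the question asked is how S differs from P in each fraction and how each mRNA is spread over the gradient.

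Sequences from the reference show which annotated transcripts carry a stem-loop or, near their end, a poly(A) signal. Poly-T selection was used for these libraries, and which mRNA forms it captured was not tested. Stem-loops are printed below for genes whose levels are described later, with the 16-base core in capitals and 5 bases on either side, 5′ to 3′, written as DNA from GENCODE release 29 on GRCh38. They show the core of the main H2A, H2B and H3 type, its single-base forms, the H4 type and the form in H2AX, the only variant gene in which a core was found.
H2BC21 stem-loop, chr1:149886183-149886208, strand -: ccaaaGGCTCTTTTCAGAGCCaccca
H2AC19 stem-loop, chr1:149851569-149851594, strand +: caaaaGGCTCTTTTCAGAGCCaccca
H2BC5 stem-loop, chr6:26158582-26158607, strand +: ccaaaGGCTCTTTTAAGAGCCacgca
H3C6 stem-loop, chr6:26225591-26225616, strand +: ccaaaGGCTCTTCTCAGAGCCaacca
H4C5 stem-loop, chr6:26204996-26205021, strand +: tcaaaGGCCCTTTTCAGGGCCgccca
H4C14 stem-loop, chr1:149833027-149833052, strand +: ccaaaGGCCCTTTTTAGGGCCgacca
H2AX stem-loop, chr11:119094893-119094918, strand -: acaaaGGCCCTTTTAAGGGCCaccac
A core was found in 26 of the 54 human replication-dependent genes, and 15 of these 26 had the core of H2BC21. For many of the other 28 genes the annotated transcript ends with the coding sequence, so the stem-loop lies outside what was searched.

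Poly(A) signals, AATAAA or ATTAAA within 40 bases of an annotated transcript end and after any stem-loop, were found in 21 of the 54 human replication-dependent genes and in all 12 variants. Those of 5 genes with high levels in one state are printed with the signal in capitals.
H2AC6 poly(A) signal, chr6:26139076-26139105, strand +: ctggcatgaggtAATAAAaggtaatgcaaa
H2AC19 poly(A) signal, chr1:149851591-149851620, strand +: cccacgttttcaAATAAAagagttgttaat
H2BC5 poly(A) signal, chr6:26171313-26171342, strand +: aaagttataattAATAAAatctgcggagaa
H2BC21 poly(A) signal, chr1:149884465-149884494, strand -: gctattgttattAATAAAgttaccaattaa
H4C5 poly(A) signal, chr6:26206004-26206033, strand +: tctccctctgaaAATAAAgtctttgttact
In H2AC6, H2BC21 and H4C5 the signal lies downstream of the stem-loop in the same annotated transcript. In H2AC19 it follows shortly behind the stem-loop, and the printed stretches overlap. Poly-T selection favours mRNAs with a poly(A) tail, so the values are not totals of histone mRNA. Reads that remain from mRNAs with either end cannot be told apart in gene-level values.

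The values are TPM, read density per gene length scaled to a library total of 1000000, so levels of different genes in one library can be compared and read depth is unknown. Comparisons use log2(TPM + 1), with genes of at least 1 TPM on average over the 6 libraries of a line, which were 12638 genes in A375 and 10492 in Yumm1.7. All differences are given relative to the median of these genes, because the median gene itself was lower in S by 0.20 in A375 input and by 0.94 in Yumm1.7 input on the log2 scale. In polysomes the median S minus P was -0.21 in A375 and -1.53 in Yumm1.7. The genes listed add up to 66.6% to 90.1% of that total in A375 and 84.5% to 94.4% in Yumm1.7, an uneven shortfall for which no correction was made. Genes listed at 0 numbered 447 to 1129 per A375 library and 276 to 1581 per Yumm1.7 library. Of 8 melanocyte lineage markers, 6 were listed in A375, with a sum of 864 TPM in S input and 586 TPM in P input. In Yumm1.7, 4 were listed, with a sum of 0.571 TPM in S input and 5.09 TPM in P input, so these defining markers were near 0 there. Fibroblast markers, 7 of 8 listed in Yumm1.7, summed to 329 TPM in S input and 43.4 TPM in P input, and their part in the histone values was not tested.

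Summed over the class, replication-dependent transcripts captured by poly-T selection were more abundant in S in every fraction of both lines. The A375 sums in S were 955 TPM in input, 307 TPM in monosomes and 1338 TPM in polysomes, against 252, 69.5 and 114 TPM in P. Yumm1.7 S had 1395 TPM in input, 1013 TPM in monosomes and 1317 TPM in polysomes, against 190, 152 and 232 TPM in P. Mitochondrial transcripts also took a larger share of S libraries, 16.8% of the TPM total in A375 S input and 13.3% in P input, and 19.1% in Yumm1.7 S input and 9.86% in P input. In polysomes the mitochondrial shares were 9.15% in A375 S and 2.23% in P, and 19.4% in Yumm1.7 S and 1.90% in P, and their part in the histone values was not tested.

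Variant sums were lower in S. The A375 variant sums in S were 2493, 1312 and 3621 TPM in input, monosomes and polysomes, against 4961, 1493 and 5113 TPM in P. The variant sums of Yumm1.7 S were 731, 745 and 561 TPM, against 1670, 1221 and 3118 TPM in P. In A375 this direction came from H2AZ1. Without it, a sum added after the values were seen, the totals were 2198, 941 and 3250 TPM in S, against 1771, 654 and 2101 TPM in P. Without H2afz the Yumm1.7 sums were still lower, with 724, 717 and 536 TPM in S, against 1113, 804 and 1749 TPM in P. As a share of all histone TPM in input, replication-dependent genes made up 27.7% in A375 S and 4.83% in A375 P, and 65.6% in Yumm1.7 S and 10.2% in Yumm1.7 P. The libraries were selected with poly-T beads, so these sums and shares are of captured RNA. A change in the polyadenylated part of the replication-dependent mRNAs was not tested. Fewer cells that make an mRNA and less of that mRNA per cell cannot be told apart in such libraries.

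**Figure D1:**
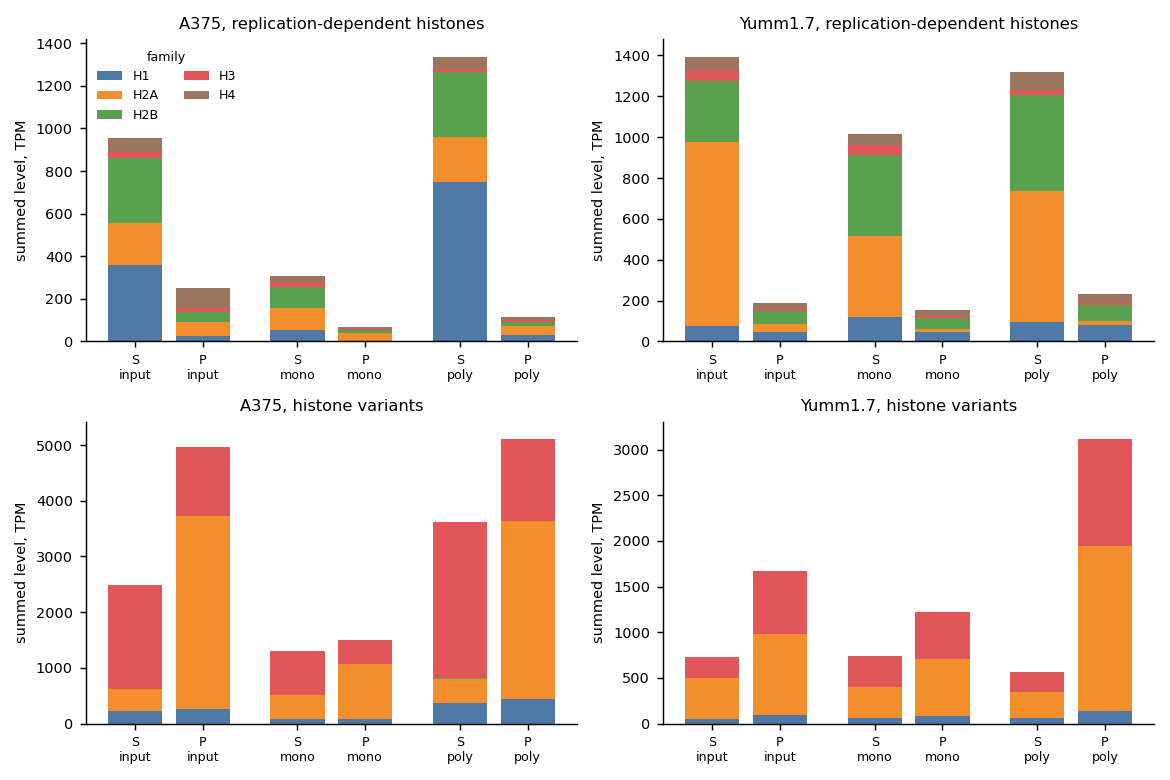
Summed level in TPM (y axis) of replication-dependent histones (upper row) and histone variants (lower row) in each library (x axis; mono is monosome, poly is polysome), stacked by histone family, 1 library per bar. The bars of S stand above those of P for replication-dependent genes in all fractions, 955 against 252 TPM in A375 input, and below them for variants, where H2AZ1 held 64.3% of the A375 P input sum.

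These sums rest on few genes. In A375 S input the highest 5 genes, H1-2, H2BC12, H2AC6, H2AC19 and H2BC5, held 80.1% of the replication-dependent sum. In A375 P input the highest 5 were H4C5, H1-2, H2AC25, H4C8 and H2AC20, which held 40.4%. Hist2h2aa1 alone held 62.2% of the sum in Yumm1.7 S input. By family, the H1 sum of A375 input was 361 TPM in S and 24.8 TPM in P, the H2B sum 302 and 46.7 TPM, and the H2A sum 196 and 67.0 TPM. The H4 sum stood apart with 67.5 TPM in S input and 96.5 TPM in P input, and with 57.7 TPM in S polysomes and 10.8 TPM in P polysomes.

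The linker histone gene H1-2 encodes H1.2, which binds the DNA between nucleosomes, and had the highest mean of the replication-dependent genes over the A375 libraries. It was listed at 360 TPM in S input, 54.6 TPM in S monosomes and 748 TPM in S polysomes, against 20.7, 4.21 and 31.2 TPM in P. S exceeded P in all 3 fractions, by 4.25 in input on the log2 scale relative to the median gene, and 26 of the 12638 genes had a larger value. The other replication-dependent H1 genes listed, H1-3 and H1-4, did not reach the minimum, with 0.0885 and 0.227 TPM in S input against 2.38 and 1.64 TPM in P input.

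Core histone genes of the H2A and H2B families, whose proteins pair as dimers in the nucleosome, included the other large differences in A375. H2BC12 had 187, 56.7 and 182 TPM in S input, monosomes and polysomes, against 9.17, 2.50 and 9.29 TPM in P. H2AC6 had 81.1, 53.5 and 76.9 TPM in S, against 2.96, 1.38 and 2.24 TPM in P. H2AC19 had 78.4, 22.1 and 108 TPM in S, against 5.26, 2.85 and 4.27 TPM in P. For these 3 genes the lowest S library stood above the highest P library. H2AC19 has a near-identical neighbour, H2AC18, which was not analysed here, so reads may have been divided between the copies.

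H2BC5 followed the same pattern with 57.5, 16.9 and 73.1 TPM in S input, monosomes and polysomes, against 6.47, 2.28 and 1.26 TPM in P. H2BC21 was near 0 in P, with 33.8, 13.4 and 25.5 TPM in S against 0.818, 0.495 and 0.553 TPM in P. H2BC4 had 13.4, 5.56 and 14.5 TPM in S, against 4.19, 0.677 and 1.81 TPM in P. H2AC25 did not move with them: it had 22.2, 15.3 and 14.2 TPM in S and 19.6, 21.6 and 20.9 TPM in P, so its ranges in S and P overlapped.

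H3 genes were low in A375, and those at least 2-fold higher in S in all 3 fractions were H3C10 and H3C6. H3C10 had 9.68, 8.82 and 4.48 TPM in S input, monosomes and polysomes, against 0.388, 0.507 and 0.176 TPM in P. H3C6 had 7.56, 8.73 and 1.93 TPM in S, against 0.457, 0.258 and 0.164 TPM in P. For both genes the lowest S library stood above the highest P library.

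The H4 genes encode one protein from many loci, and in A375 they divided by fraction. H4C5 was listed at 3.57, 3.64 and 2.32 TPM in S input, monosomes and polysomes, against 29.9, 0.332 and 0 TPM in P. H4C8 had 6.57, 5.22 and 14.2 TPM in S, against 17.3, 0.0819 and 0.194 TPM in P. Both were thus lower in S in input and higher in S in the gradient fractions. H4C14 had 22.8, 3.43 and 18.2 TPM in S, against 7.72, 1.02 and 1.30 TPM in P. H4C15 had 23.2, 5.46 and 18.5 TPM in S, against 7.70, 1.20 and 1.30 TPM in P. These genes share 1 identical annotated transcript of 610 bases, so their near-equal values cannot be read as independent.

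**Figure D2:**
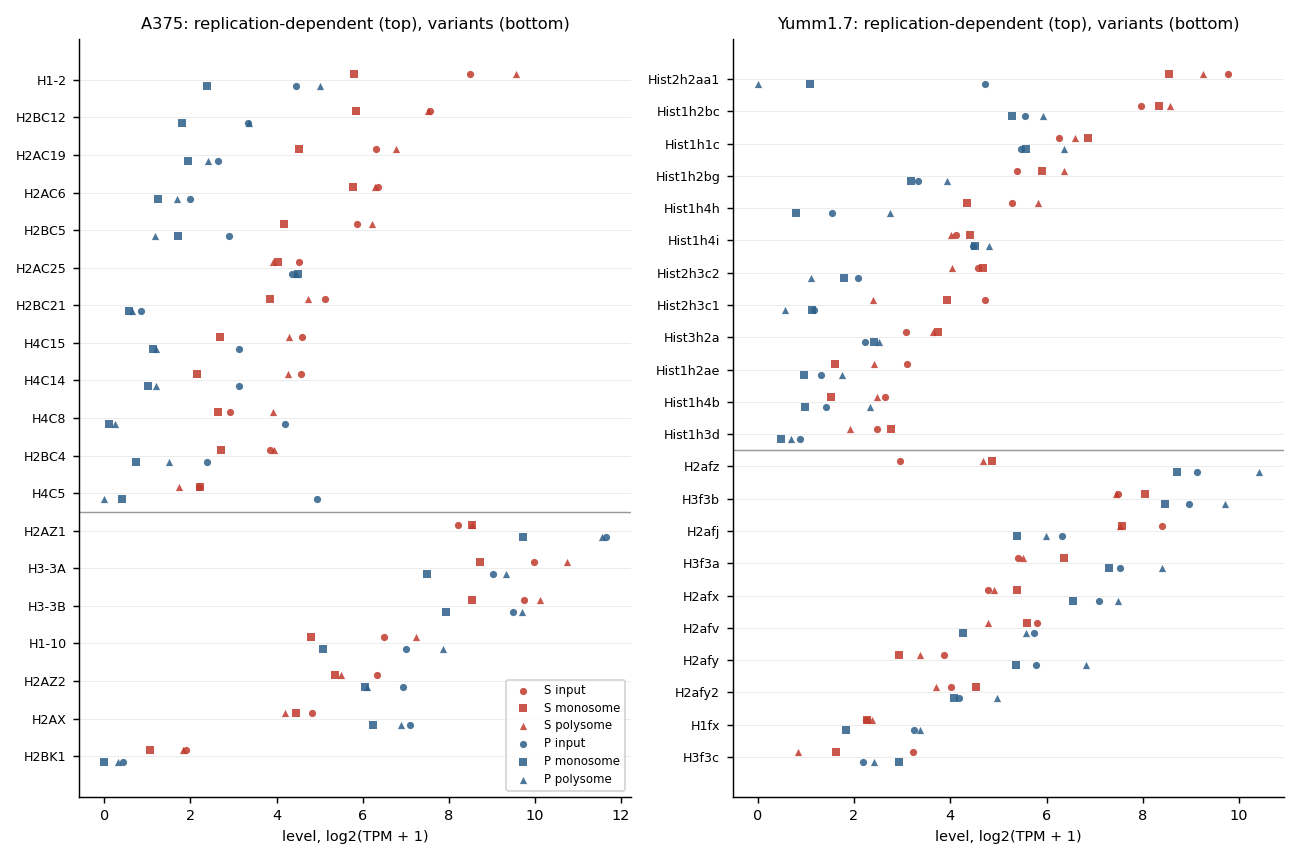
Level as log2(TPM + 1) (x axis) of the 12 replication-dependent genes with the highest mean and of variants with a mean of at least 1 TPM, 1 per line not shown (y axis), in A375 and Yumm1.7, with S in red above P in blue and the fraction as circle, square or triangle. H1-2, H2BC12 and H2AC6 lie to the right in all S libraries, while H2AZ1 and H2AX lie to the left.

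In Yumm1.7 the replication-dependent gene with the highest mean was Hist2h2aa1, an H2A gene, with 867, 371 and 612 TPM in S input, monosomes and polysomes, against 25.5, 1.11 and 0 TPM in P. Its P polysome value is listed at 0 and no fold is given there. Hist1h2bc, an H2B gene, had 248, 324 and 377 TPM in S, against 46.2, 38.1 and 59.9 TPM in P. Hist1h2bg, of the same family, had 40.6, 58.6 and 81.3 TPM in S, against 9.03, 8.04 and 14.2 TPM in P. All S libraries of these genes stood above all P libraries.

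Hist1h1c, the mouse H1.2 gene, differed less, with 75.6, 116 and 95.1 TPM in S and 43.4, 46.4 and 80.8 TPM in P. Its value relative to the median gene was 1.72 in Yumm1.7 input, against 4.25 for human H1-2. Hist1h4h had 38.0, 19.3 and 55.8 TPM in S, against 1.90, 0.723 and 5.73 TPM in P. Hist1h4i, another H4 gene, was lower in S in each fraction as deposited and within 2-fold of the median gene, with 16.2, 20.1 and 15.2 TPM in S and 21.2, 21.7 and 26.8 TPM in P.

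The H3 genes Hist2h3c1 and Hist2h3c2 were low in P. Hist2h3c1 had 25.4, 14.2 and 4.22 TPM in S, against 1.23, 1.18 and 0.476 TPM in P. Hist2h3c2 had 22.9, 24.5 and 15.3 TPM in S, against 3.25, 2.48 and 1.14 TPM in P. The remaining genes among the 12 highest were low. Hist3h2a, an H2A gene, had 7.50, 12.3 and 11.5 TPM in S, against 3.70, 4.33 and 4.71 TPM in P. Hist1h2ae, of the same family, had 7.59, 2.02 and 4.30 TPM in S, against 1.48, 0.951 and 2.36 TPM in P. The H4 gene Hist1h4b had 5.27, 1.87 and 4.57 TPM in S, against 1.68, 0.983 and 4.04 TPM in P. For these 2 genes, Hist1h2ae and Hist1h4b, S was above P in each fraction, although the ranges over all fractions overlapped. The H3 gene Hist1h3d had 4.53, 5.83 and 2.77 TPM in S, against 0.831, 0.396 and 0.603 TPM in P.

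Counted over the class, 30 of the 54 A375 replication-dependent genes and 20 of the 62 in Yumm1.7 reached a mean of 1 TPM. Many of these passed because of high values in one state, so their counts are a description. At least 2-fold higher in S input were 14 of the 30 A375 genes, where 15.6% of all genes tested were, and at least 2-fold lower were 9, where 16.2% were. In monosomes 16 were higher, against 11.7% of all genes, and 1 was lower, against 13.2%. In polysomes 18 were higher, against 16.5%, and 3 were lower, against 15.6%. The medians over these 30 genes were 0.77 in input, 1.10 in monosomes and 1.54 in polysomes.

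With no filter, the A375 input count turned. Over all 54 listed genes the input median was -0.22, with 14 at least 2-fold higher, where 13.2% of all listed genes were, and 17 at least 2-fold lower, where 13.1% were. At or above 1 TPM were 26, 27 and 26 of the 54 genes in S input, monosomes and polysomes, and 40, 14 and 22 in P. The P input library thus listed more replication-dependent genes at 1 TPM or more than any other A375 library. Genes at least 2-fold higher in S in all 3 fractions numbered 13 of 30, against 6.24% of all genes tested: H1-2, H2AC19, H2AC6, H2AC8, H2BC12, H2BC15, H2BC21, H2BC4, H2BC5, H3C10, H3C6, H4C14 and H4C15. The H2B gene H2BC9 was the only one at least 2-fold lower in all 3, against 6.33% of all genes, with 1.59, 2.14 and 0.564 TPM in S and 8.67, 6.69 and 4.79 TPM in P.

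In Yumm1.7, S input exceeded P input by 2-fold or more for 17 of the 20 genes, where 23.1% of all genes tested were, and 0 were lower, where 22.3% were. In monosomes 13 were higher and 0 lower, against 25.4% and 24% of all genes. In polysomes 16 were higher and 0 lower, against 24.1% and 22.5%. As deposited, without setting the values against the median gene, 10 of the 20 were at least 2-fold higher in S input, against 8.94% of all genes. The same number, 10, were higher in S polysomes as deposited, against 5.28%. A gene near 0 in both states gains 0.94 in input and 1.53 in polysomes from the median gene alone. Genes at least 2-fold higher in all 3 fractions numbered 12 of 20, against 14.1% of all genes tested.

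**Figure D3:**
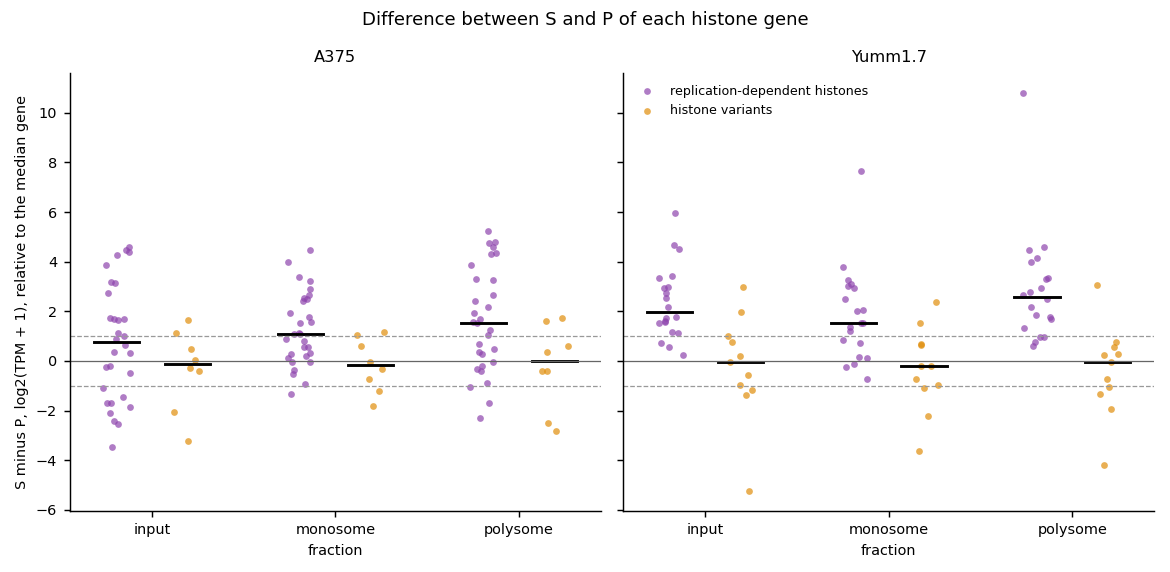
S minus P in log2(TPM + 1), relative to the median gene (y axis), of each histone gene with a mean of at least 1 TPM, by fraction (x axis), in A375 and Yumm1.7. Points are genes, black bars are class medians and dashed lines mark 2-fold: replication-dependent medians span 0.77 to 1.54 for A375 and 1.52 to 2.59 for Yumm1.7, while those of variants lie between -0.20 and -0.02.

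Relative to the median gene, variants had similar counts in both directions in input. Of the 8 A375 variants with a mean of at least 1 TPM, 2 were at least 2-fold higher and 2 at least 2-fold lower in S input, where 15.6% and 16.2% of all genes were, and the median was -0.13. Of the 11 in Yumm1.7, 2 were higher, H2afj and H3f3c, and 3 lower, H2afz, H3f3a and H2afx, where 23.1% and 22.3% of all genes were, with a median of -0.06. In Yumm1.7 monosomes 2 were higher and 3 lower, against 25.4% and 24% of all genes. In Yumm1.7 polysomes 1 was higher and 4 were lower, against 24.1% and 22.5%. As deposited, the median of these 11 in polysomes was -1.57, where the median gene itself was at -1.53. The 4 A375 variants below the minimum, H2AB1, H2AP, H2BW1 and H3-5, reached at most 2.71 TPM in any library, and H2afy3 of Yumm1.7 reached at most 1.03 TPM.

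H2A.Z, the variant H2A placed around promoters, comes from 2 genes that differed sharply. H2AZ1 had 295, 371 and 370 TPM in A375 S input, monosomes and polysomes, against 3190, 838 and 3012 TPM in P. Mouse H2afz had 6.78, 28.2 and 24.7 TPM in Yumm1.7 S, against 557, 417 and 1370 TPM in P. In both lines all S libraries stood below all P libraries, with input values of -3.23 and -5.23 relative to the median gene. The paralog H2AZ2 had 79.3, 40.3 and 44.2 TPM in A375 S and 122, 65.0 and 67.3 TPM in P. Its mouse counterpart H2afv had 54.5, 46.9 and 26.6 TPM in Yumm1.7 S and 52.4, 18.2 and 46.2 TPM in P. H2AZ2 was lower in S in each fraction and within 2-fold of the median gene. As deposited, H2afv was higher in S in input and monosomes and lower in polysomes. Relative to the median gene it passed 2-fold in monosomes only, at 1.53.

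H2AX, the variant that is phosphorylated at DNA breaks, was lower in S in both lines. It had 27.3, 20.9 and 17.3 TPM in A375 S input, monosomes and polysomes, against 136, 74.5 and 118 TPM in P. Mouse H2afx had 26.6, 40.6 and 28.9 TPM in Yumm1.7 S, against 135, 92.2 and 178 TPM in P. Relative to the median gene the input values were -2.08 in A375 and -1.36 in Yumm1.7. In Yumm1.7 monosomes the value, -0.95, was within 2-fold. H2afj encodes H2A.J, a replication-independent H2A described in senescent human cells, and was higher in Yumm1.7 S, with 334, 189 and 183 TPM against 79.5, 41.0 and 62.8 TPM in P. It was the only one of the 11 Yumm1.7 variants at least 2-fold higher in all 3 fractions, and its human counterpart was not analysed here.

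The H3.3 protein, deposited outside replication, is encoded by 2 genes in each species. H3-3A had 1006, 421 and 1707 TPM in A375 S input, monosomes and polysomes, against 523, 180 and 640 TPM in P. Mouse H3f3a had 41.6, 81.8 and 44.7 TPM in Yumm1.7 S, against 182, 156 and 336 TPM in P. S was thus above P in each fraction in A375 and below it in Yumm1.7. H3-3B had 863, 373 and 1102 TPM in A375 S and 716, 242 and 835 TPM in P, within 2-fold in each fraction. H3f3b had 177, 265 and 174 TPM in Yumm1.7 S and 499, 352 and 837 TPM in P, also within 2-fold of the median gene.

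The linker variant gene H1-10 had 89.7, 26.9 and 151 TPM in A375 S input, monosomes and polysomes, and 127, 32.8 and 233 TPM in P. Its mouse counterpart H1fx had 3.75, 3.78 and 4.21 TPM in Yumm1.7 S and 8.47, 2.57 and 9.29 TPM in P. Both were within 2-fold of the median gene in each fraction.

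Macro-H2A, a large H2A with an extra globular domain, is covered by H2afy in the mouse symbols. H2afy had 13.5, 6.62 and 9.30 TPM in Yumm1.7 S input, monosomes and polysomes, against 53.7, 40.05 and 113 TPM in P. The human gene MACROH2A1, whose symbol the search did not match, had 107 TPM in A375 S input and 205 TPM in P input. H2afy2 had 15.2, 22.2 and 12.1 TPM in S and 17.0, 15.8 and 30.1 TPM in P. H3f3c had 8.32, 2.10 and 0.781 TPM in S and 3.57, 6.67 and 4.29 TPM in P, with no common direction. H2BK1 was low in A375, with 2.75, 1.10 and 2.53 TPM in S and 0.364, 0 and 0.242 TPM in P.

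Some replication-dependent transcripts of A375 P were listed in input and hardly in either gradient fraction. Of 16 such genes at 5 TPM or more in A375 P input, 7 were at least 2-fold below their input level in both the monosome and the polysome library, relative to the median gene: H4C5, H4C8, H4C3, H4C4, H4C14, H4C15 and H2BC18. That is 43.8% of them, against 0.545% of all genes at that input level. In A375 S it was 0 of 15, against 0.478% of all genes. H4C3 had 1.37, 1.41 and 0 TPM in S input, monosomes and polysomes, against 13.8, 1.18 and 1.41 TPM in P. H2BC18 had 0.702, 1.13 and 1.15 TPM in S, against 5.998, 0.205 and 0.207 TPM in P. The genes at 5 TPM or more differ between the states, and of the 7 only H4C8, H4C14 and H4C15 reached that level in S input too. None of the variants in A375 showed this pattern, with 0 of 7 in either state.

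In Yumm1.7 the pattern appeared for 1 of 11 replication-dependent genes in S, Hist2h3c1, against 1.77% of all genes. In P it appeared for 1 of 5, Hist2h2aa1, against 0.514% of all genes. Of the Yumm1.7 variants 1 of 10 showed it in S, H3f3c, and 0 of 10 in P. This count of genes low in both fractions was chosen after the values were seen, and with a pseudocount of 5 TPM the count in A375 P was 2 of 16.

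**Figure D4:**
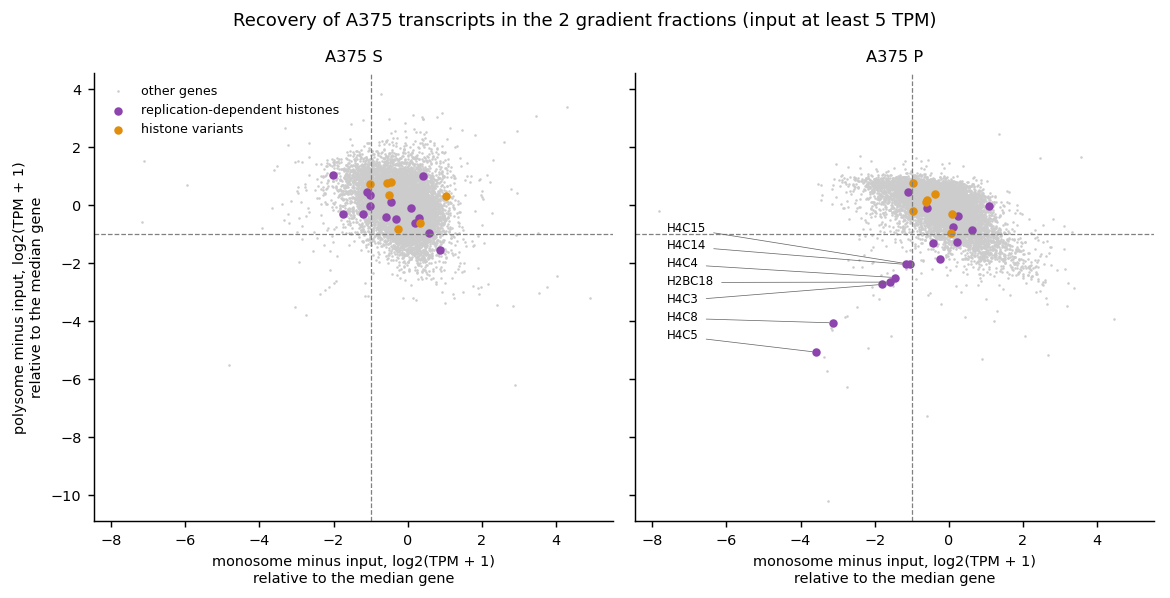
Monosome minus input (x axis) and polysome minus input (y axis), in log2(TPM + 1) relative to the median gene, for A375 genes with at least 5 TPM in the input of S (left) or P (right). Grey points are other genes and dashed lines mark 2-fold below input: 7 of 16 replication-dependent genes lie in the lower left corner in P and 0 of 15 in S.

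The spread of each mRNA over the gradient was read as the polysome-to-monosome ratio within a state. The monosome library also holds several lighter fractions, so this ratio does not measure ribosome loading alone. For A375 replication-dependent genes the medians over the 30 genes were -0.64 in S and -0.91 in P relative to the median gene, close to the -0.67 in S and -1.05 in P that a gene listed at 0 in both fractions gets. They give no direction for the class: the median was 0.03 in S and 0.14 in P as deposited, 0.55 in S when a mean of 5 TPM or more was required, and 1.47 in S by the class sum. Toward polysomes by at least 2-fold were 5 of the 30 in S, against 20.8% of all genes, and 1 in P, against 19.1%. The 5 were H1-2, H2AC19, H4C14, H2BC5 and H2BC15, and the 1 in P was H1-2. At least 2-fold toward monosomes were 8 of the 30 in S, against 16.7% of all genes, and 11 in P, against 20.8%. In P a gene listed at 0 in both fractions passes that line, at -1.05. H1-2 had 3.09 in S and 1.58 in P, and 102 of the 12638 genes had a higher value in S. The variant medians over 8 genes were 0.49 in S and 0.75 in P, and 1.16 in S and 1.80 in P as deposited. The linker variant gene H1-10 had 1.78 in S and 1.74 in P.

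The largest positive differences between states among the 30 genes were in H2BC5, H4C14, H2AC19 and H4C15. H2BC5 was 2.88 higher in S than in P on the log2 scale relative to the median gene, H4C14 was 2.22 higher, H2AC19 2.08 higher and H4C15 1.83 higher. These genes were low in P monosomes and polysomes, with 2.28 and 1.26 TPM for H2BC5 and 2.85 and 4.27 TPM for H2AC19. H4C14 had 1.02 and 1.30 TPM there and H4C15 1.20 and 1.30 TPM, and both share an annotated transcript. The ratio was at least 2-fold higher in S for 8 of the 30 A375 genes, against 13.1% of all genes, and at least 2-fold lower for 3, against 7.88%. H2AZ1 went the other way at -1.55: its polysome TPM equalled 0.998 of its monosome TPM in S and 3.59 times its monosome TPM in P. In Yumm1.7 the replication-dependent medians were 0.52 in S and -0.45 in P, where a gene listed at 0 gets 0.46 in S and -0.91 in P, and 13 of 20 genes had a ratio at least 2-fold higher in S, against 17.3% of all genes. The median change between S and P was 1.22 relative to the median gene and -0.20 in the values as deposited, since the median gene itself differed by -1.42. With that reference a gene unchanged as deposited passes the 2-fold line, so the count of 13 gives no direction for the class.

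Several human H2A and H2B genes lie back to back with their start sites less than 500 bases apart, and 9 such pairs were among the genes listed. The intervening promoter of H2BC21 and H2AC20 is printed from RefSeq on GRCh38.p14 because this pair went in opposite directions. The window runs from 250 bases before to 50 after the start site of H2BC21 on the minus strand of chromosome 1, and the start sites lie 236 bases apart. Capitals mark 3 motifs on either strand: the CCAAT box, the TATA box with the letters TATAAA, and the octamer with the letters ATTTGCAT.
H2BC21 promoter, chr1:149886633-149886932, strand -: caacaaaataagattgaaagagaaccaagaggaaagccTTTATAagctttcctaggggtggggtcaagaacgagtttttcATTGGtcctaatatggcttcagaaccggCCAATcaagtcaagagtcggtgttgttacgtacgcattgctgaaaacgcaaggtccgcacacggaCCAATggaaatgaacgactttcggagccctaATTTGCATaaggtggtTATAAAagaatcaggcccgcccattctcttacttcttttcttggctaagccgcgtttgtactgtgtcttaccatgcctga
The octamer ATTTGCAT and a TATAAA stand on the H2BC21 side, another TATAAA on the H2AC20 side, and 3 CCAAT boxes between. Among the 50 replication-dependent genes with a RefSeq promoter, CCAAT was present in 84%, TATAAA in 70% and ATTTGCAT in 40%, against 34.6%, 11.5% and 1.77% of all 35116 promoters. CCAAT was as frequent in variants, in 9 of 10 promoters, and TATAAA stood in 5 of the 10 and ATTTGCAT in 1. By family, the octamer occurred in 10 of 14 H2B and 9 of 13 H2A promoters, and CCAAT in 1 of 9 H4 promoters. Windows of back-to-back genes overlap, so 1 match can count for both, and the octamer of H2BC21 also lies in the H2AC20 window. A match of letters is a description and not a site.

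H2BC21 had 33.8 TPM in A375 S input and 0.818 TPM in P input, whereas H2AC20 had 0.181 TPM in S input and 14.2 TPM in P input. In the other fractions H2AC20 had 2.16 TPM in S monosomes and 0.177 TPM in S polysomes, against 4.80 and 5.70 TPM in P. H2BC12 and H2AC12, with start sites 248 bases apart, also diverged, with 187 and 0.636 TPM in S input against 9.17 and 4.21 TPM in P input. H2AC6 and H2BC4 were both higher in S, with 81.1 and 13.4 TPM in S input against 2.96 and 4.19 TPM in P input. The remaining 6 pairs were low apart from H2AC25, and both genes of the H2AC14 and H2BC14 pair were lower in S, with 0 and 0.178 TPM in S input against 3.92 and 2.30 TPM in P input.

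**Figure D5:**
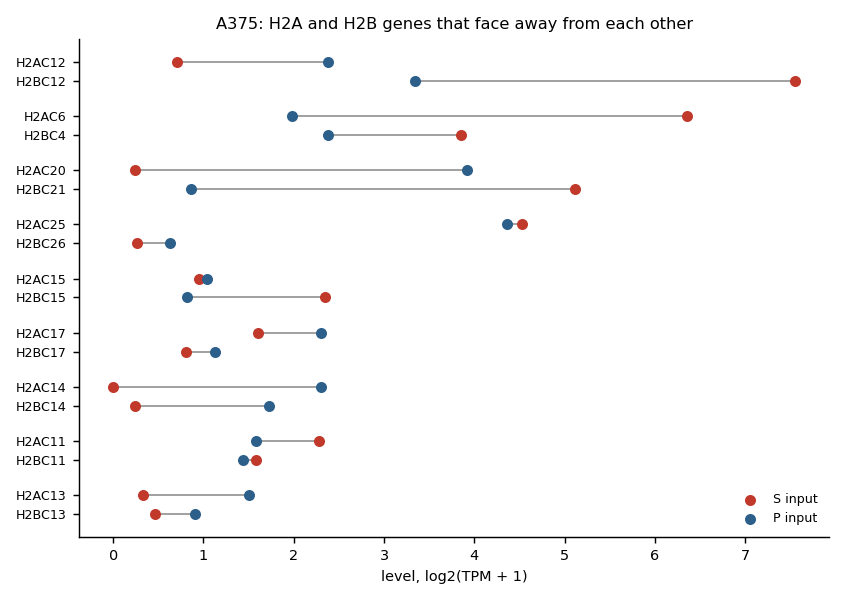
Input level as log2(TPM + 1) (x axis) of the H2A and H2B genes of 9 back-to-back pairs in A375 (y axis, H2A above H2B), with S in red and P in blue. The lines of H2AC20 and H2BC21 run in opposite directions, with H2AC20 at 0.181 TPM in S and 14.2 TPM in P, and those of H2AC6 and H2BC4 in the same direction.

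Annotated ends were set beside these values after they were seen. Of the A375 replication-dependent genes with a poly(A) signal near a transcript end, 18 were tested (all genes: 15.6% higher, 16.2% lower), and 10 of them were at least 2-fold higher and 4 at least 2-fold lower in S input, with a median of 1.66. Of those without one, 12 were tested, of which 4 were higher and 5 lower, with a median of -0.37. For many of these 12 the annotated transcript ends with the coding sequence, as in H4C4 with 312 bases and H2AC20 with 390. A signal further on was outside what was searched, so the 2 groups differ in annotated length and their medians do not compare 3′ ends. By summed TPM both groups were higher in S input. The 18 genes had 378 TPM in S and 126 TPM in P, and the 12 had 569 TPM in S and 90.5 TPM in P. H1-2 and H2BC12 were higher in S and had no such signal in the transcripts searched, of 642 and 381 bases. The RefSeq gene of H2BC12 spans 8566 bases, so a longer form was not searched. H3-7, 1 of the 18 and within 2-fold, lies at another place in GENCODE than in RefSeq. H4C5 and H2BC9 had a signal and were lower in S input. H2AX, which carries both the stem-loop and a poly(A) signal, was lower in S in each fraction.

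Genes that make and process histone mRNA were examined as a list. Of 22 histone mRNA processing and decay genes tested in A375, 0 were at least 2-fold higher and 6 at least 2-fold lower in S input, where 15.6% and 16.2% of all genes were, with a median of -0.68. In Yumm1.7, 1 of 21 was higher and 6 were lower, where 23.1% and 22.3% of all genes were, with a median of -0.46. CSTF2, a subunit of the 3′-end cleavage machinery, had 8.96 TPM in A375 S input and 49.1 TPM in P input. SLBP had 42.5 TPM in A375 S input and 141 TPM in P input, and Slbp had 1.68 TPM in Yumm1.7 S input and 70.8 TPM in P input. Eri1, the exonuclease that trims the stem-loop end, had 1.01 TPM in Yumm1.7 S input and 19.3 TPM in P input. NPAT, the coactivator of histone gene transcription, was within 2-fold of the median gene, with 1.13 TPM in A375 S input and 2.73 TPM in P input. LSM10, part of the U7 particle that guides the cut behind the stem-loop, had 107 TPM in A375 S input and 82.3 TPM in P input.

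Histone chaperones, which escort histone proteins to DNA, had more members lower than higher in S in both lines. In A375, where 15.6% of all genes were higher and 16.2% lower, 1 of 29 was at least 2-fold higher and 17 were at least 2-fold lower in S input, with a median of -1.09. In Yumm1.7 the counts were 1 higher and 18 lower of 27, where 23.1% and 22.3% of all genes were, with a median of -1.65. HJURP, the chaperone of the centromeric H3, had 1.72 TPM in A375 S input and 82.1 TPM in P input. ASF1B, a chaperone of H3 and H4, had 3.42 TPM in A375 S input and 80.3 TPM in P input. Asf1b was listed at 0 in Yumm1.7 S input and had 35.7 TPM in P input, and Mcm2, a helicase subunit that also binds H3 and H4, had 0.806 TPM in S input and 36.5 TPM in P input. Of 38 S-phase replication genes, 35 were at least 2-fold lower and 0 higher in S input in each line, with medians of -2.77 in A375 and -2.59 in Yumm1.7. CDC45, a helicase cofactor, had 0.322 TPM in A375 S input and 76.0 TPM in P input, and TYMS, thymidylate synthase, had 9.14 and 530 TPM. In Yumm1.7, Ccna2, cyclin A, was listed at 0 in S input and had 84.2 TPM in P input, and Rrm2, a subunit of ribonucleotide reductase, had 0.733 and 134 TPM. CENPA, the centromeric H3, had 2.22 TPM in A375 S input and 49.4 TPM in P input, and Cenpa had 0 and 74.6 TPM in Yumm1.7. In both lines, S was thus the state with the higher sum of replication-dependent histone transcripts captured by poly-T selection. It also had the lower levels of SLBP and of most S-phase genes.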

How the data were processed

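Messenger RNA was selected with poly-T beads in 12 libraries, 1 per cell line, state and fraction, per the labels' protocols. The deposited values are TPM made by the authors, in 1 table per line. Per the submitters' processing notes the builds were GRCh38 (hg38) and GRCm38 (mm10). Aligner, quantifier, annotation and strandedness: not given in the sources used here. TPM keeps no depth, so no counting error is given. The lowest mean listed is 0.1 TPM in both tables.

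Members were found by symbol, with classes from RefSeq synonyms. The members, lists and tests were chosen with earlier results of these data known. Values were compared as log2(TPM + 1) for genes averaging 1 TPM or more, relative to the median gene, and a 2-fold difference was counted. Members given in every library are the 12 replication-dependent genes with the highest mean and variants with a mean of at least 1 TPM per line (1 variant per line is not reported here by name but stays in the counts), plus H4C3, H2BC18, H2BC9, H3C10, H3C6 and H2AC20, chosen after their values were seen. H1-3, H1-4 and other paired genes, also chosen so, are given in input. From each list and line the 2 genes with the largest S minus P input difference at a mean of at least 5 TPM were named, with NPAT, LSM10, CENPA and MACROH2A1 added. Human transcripts came from GENCODE 29 (66 of 66 genes matched, H3-7 at another place than in RefSeq, and its class rests on an older HIST name) and promoters from RefSeq (60 matched). The mouse genes have no sequence features here. The functions were checked on simulated data, in Python 3.11.15 with pandas and numpy. Alternatives covered the pseudocount, the filter, the reference for relative values, and class sums.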

Additional observations from a re-analysis of the deposited data

Results flagged for a closer look

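The H3.3 gene H3-3A and its mouse counterpart H3f3a differed by at least 2-fold from the median gene in opposite directions in the 2 lines. S minus P in input was 1.14 in A375 and -1.17 in Yumm1.7, and in polysomes it was 1.62 in A375 and -1.35 in Yumm1.7, on the log2 scale. With 1 library per group the difference between the lines was not tested.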

How the results depend on the processing

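With 1 library per group, no result has a replicate error and leaving out a library was not possible. No paired analysis was possible because each group has 1 library and the labels share no replicate numbers beyond it. Values moved by over 1.5-fold are given here, medians of S minus P first, and 157 other recomputed values did not move that far. Where the filter was changed, the median gene was taken over the genes then kept, so the unfiltered A375 input median differs from the -0.22 above. For replication-dependent genes without the filter, the medians in input, monosomes and polysomes were -0.26, 0.24 and 0.24 in A375, where the input median changed sign, and 0.71, 0.43 and 1.39 in Yumm1.7. At a mean of at least 5 TPM they were 2.44, 2.44 and 4.12 in A375, with 9 genes higher in input, and 3.40, 2.92 and 4.06 in Yumm1.7, with 8 higher. The ratio of summed TPM gave 2.32, 2.19 and 3.89 in A375 and 3.96, 3.05 and 4.14 in Yumm1.7. A pseudocount of 5 TPM gave 0.36 and 0.59 in A375 monosomes and polysomes and 1.21, 0.85 and 1.43 in Yumm1.7, and one of 0.1 TPM gave 1.98 and 2.55 in A375 monosomes and polysomes and 3.20 in Yumm1.7 polysomes. As deposited, Yumm1.7 medians were 1.04 in input, with 10 genes higher, and 1.05 in polysomes. The variant medians were -0.79 by summed TPM in A375 input, -1.0 as deposited in Yumm1.7 input, and -1.57 as deposited and -0.94 by summed TPM in Yumm1.7 polysomes. The A375 variants higher in input numbered 1 with a pseudocount of 5 TPM, at a mean of at least 5 TPM and as deposited, and the Yumm1.7 ones 1 without H2afx and H2afj. For polysome minus monosome as deposited, medians were 0.03 in S and 0.14 in P for A375 replication-dependent genes, where both changed sign, 1.16 in S and 1.80 in P for A375 variants, and in Yumm1.7 P 0.47 for replication-dependent genes, also with a changed sign, and 1.10 for variants. The A375 S replication-dependent median was 0.55 at a mean of at least 5 TPM and 1.47 by summed TPM, and the A375 P variant median -0.14 without the filter. The change of this ratio between S and P in A375 was 1.31 at a mean of at least 5 TPM and 1.74 by summed TPM, and in Yumm1.7 as deposited -0.20 for replication-dependent genes, a reversal, and -1.42 for variants. Genes low in both fractions in A375 P numbered 3 of 6 at an input of at least 10 TPM and 2 of 16 with a pseudocount of 5 TPM. Depth is unknown for TPM, so low values carry an unknown counting error.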
